A study of Mus musculus with 13 samples.

Results

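The 9 genes described here encode the enzymes and carriers with which the small intestine takes up dietary sugar. Lct (lactase), Sis (sucrase-isomaltase), Mgam (maltase-glucoamylase) and Treh (trehalase) encode the disaccharidases. Slc5a1, Slc5a4a and Slc5a4b belong to the sodium-coupled SLC5 family, and Slc2a2 (GLUT2) and Slc2a5 (GLUT5) to the facilitative SLC2 family. The genes were grouped by function, and the group was chosen with earlier results of these data known. Each was read from the probe set annotated to its symbol alone, and each had 1 such probe set. They are 9 of 19938 genes that could be named in this way, and all 9 were among the 16721 genes that passed the filter on dim genes.

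Starch, sucrose, lactose and trehalose are too large to be absorbed and are first split into single sugars at the brush border, the layer of microvilli that faces the gut lumen. The disaccharidases are anchored in that membrane. Glucose and galactose then enter the cell with sodium through SGLT1, the product of Slc5a1, while fructose enters through GLUT5, and GLUT2 lets sugars leave towards the blood. These proteins are made by differentiated enterocytes of the villus and are scarce in the dividing cells of the crypt. Lactase is high in sucklings, and sucrase-isomaltase and trehalase rise at weaning.

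Expression was measured on Affymetrix arrays in enterocytes of mice of 129/SVJ background, all carrying a gut-specific knockout of casein kinase Iα (CKIα, gene Csnk1a1), a kinase that helps to mark the Wnt effector β-catenin for destruction. The groups were CKIα KO (both alleles knocked out) and CKIα Het (1 allele), CKIα KO/p21 KO and CKIα Het/p21 KO, and CKIα KO/p53 KO and CKIα Het/p53 KO, with 2 arrays each. p53 is a tumour suppressor, and p21 is a cell cycle inhibitor that p53 activates. The controls therefore also carry 1 knocked-out CKIα allele and, in the crosses, the same p21 or p53 knockout, and no wild-type array was among those analysed. The Cre driver, the age and sex of the mice and the gut segment are not given in the sources used here. The labels call the arrays biological replicates without naming animals, so p-values measure the spread between these arrays. A further array, whose title and genotype label disagree, entered no comparison.

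Values are log2 RMA intensities. On every array the median probe set lay between 4.96 and 5.12 and the 90th percentile between 8.68 and 8.82. The labelled cell type was checked by Vil1, the microvillus protein villin, which was 11.66 at the lowest and 12.57 at the highest of the 12 arrays. The T cell marker Cd3g ranged between 7.37 and 10.65, so the preparations also held lymphocyte RNA. Of 5 colon markers, Car1, Hoxb13 and Hoxd13 lay below the array median on all 12 arrays, Aqp8 reached 6.92 in CKIα Het and 6.52 in CKIα Het/p53 KO, and Slc26a3 lay between 8.84 and 10.02 on every array. The probe set of Csnk1a1 gave 10.44 to 10.80 in all groups and does not check the genotype. Xist, transcribed from the inactive X chromosome, was 3.94 at most in the 6 samples numbered 1 and 8.91 at least in the 6 numbered 2. The labels give no sex, and replicate number and this split cannot be told apart. A fit with the replicate number as a term, which takes up the split, called the same 7 of the 9 genes without p53 as the fit reported here.

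With p53 knocked out, loss of the second CKIα allele went with lower RNA of all 4 disaccharidases and all 3 SLC5 genes, while the 2 SLC2 carriers did not pass the test. Of the 9 genes, 7 fell at an adjusted p under 0.05 in limma, where 6.82% of all tested genes fell and 11.0% rose. The median log2 difference of the 9 genes was -1.91, against -0.062 over all tested genes. In this comparison the arrays of the 2 groups did not overlap for any of the 9 genes, all lower in CKIα KO/p53 KO, where 35.7% of all tested genes were lower without overlap. In tissue RNA, fewer cells of a type and less RNA per cell cannot be told apart.

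**Figure D1:**
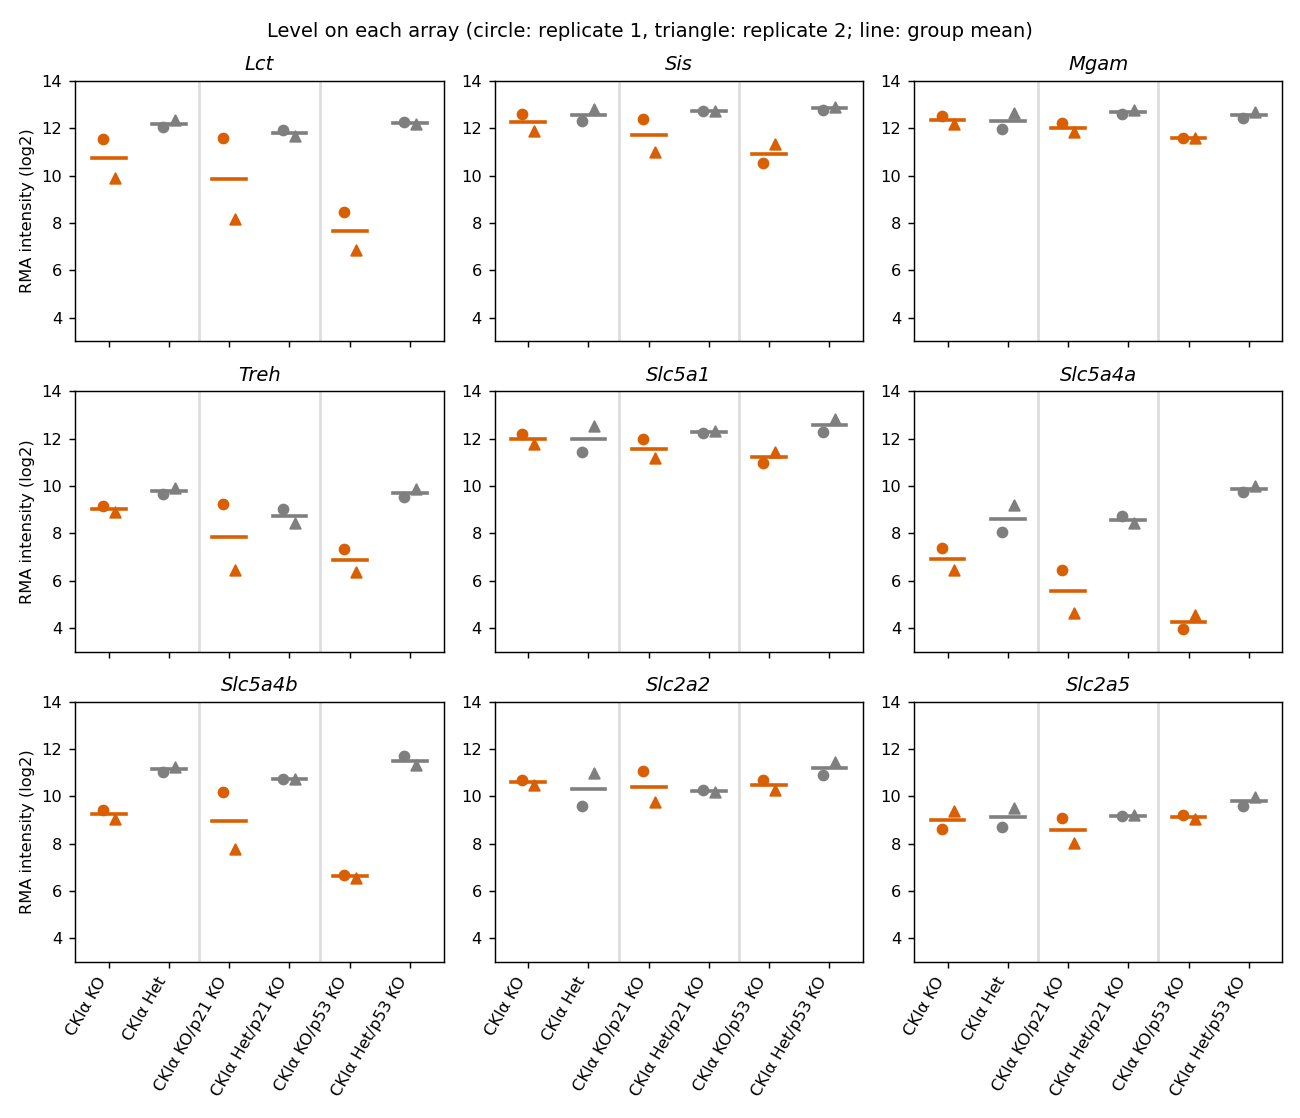
Each panel plots the log2 RMA intensity of 1 gene on the 12 arrays, by genotype group. Circles are replicate 1, triangles replicate 2 and lines group means. Slc5a4a, Slc5a4b, Lct and Treh lie far lower on the CKIα KO/p53 KO arrays than on the CKIα Het/p53 KO arrays, and Slc2a2 and Slc2a5 differ little.

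Lactase hydrolyses the milk sugar lactose. Lct had 8.47 and 6.84 on the CKIα KO/p53 KO arrays, against 12.27 and 12.17 on the CKIα Het/p53 KO arrays. The log2 difference was -4.57 ± 0.94 (SE), or 23.7-fold lower, with an adjusted p of 0.0141 and a 95% interval of -6.68 to -2.46. The groups lay far apart, and of the 10 other arrays only 1 of CKIα KO/p21 KO, at 8.16, came as low. Trehalase splits trehalose, a sugar of fungi and insects. Treh had 7.35 and 6.38 in CKIα KO/p53 KO, against 9.52 and 9.87 in CKIα Het/p53 KO, a log2 difference of -2.83 ± 0.70 (adjusted p 0.0248).

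Sucrase-isomaltase and maltase-glucoamylase are related enzymes with 2 catalytic domains each that finish the digestion of starch, and sucrase also cleaves sucrose. They were among the brightest of the 9 genes and fell less than lactase and trehalase. Sis had 10.55 and 11.32 in CKIα KO/p53 KO, against 12.80 and 12.90 in CKIα Het/p53 KO, a log2 difference of -1.91 ± 0.42 (3.77-fold lower, adjusted p 0.0175). Mgam had 11.58 on both CKIα KO/p53 KO arrays, against 12.44 and 12.70 in CKIα Het/p53 KO, a log2 difference of -0.99 ± 0.24 (1.98-fold lower, adjusted p 0.0219). Both genes stayed above the 90th percentile of every array in all groups. At such brightness an array signal can be compressed. This applies to Slc5a1 as well, and to Lct in CKIα Het/p53 KO (12.27 and 12.17), whose log2 difference was -4.57. The part of compression in the smaller log2 differences of Sis, Mgam and Slc5a1 was not tested.

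Slc5a4a and Slc5a4b are neighbouring paralogues on chromosome 10, with 0 protein-coding genes between them. In humans their relative SLC5A4 (SGLT3) is known as a glucose sensor rather than as a transporter. Slc5a4a had 3.93 and 4.55 in CKIα KO/p53 KO, below the array median, against 9.75 and 9.99 in CKIα Het/p53 KO. The log2 difference was -5.63 ± 0.56 (adjusted p 0.00341), and no fold is given because the CKIα KO/p53 KO values may lie at the background of the arrays. Slc5a4b had 6.68 and 6.56 in CKIα KO/p53 KO, against 11.71 and 11.31 in CKIα Het/p53 KO, a log2 difference of -4.89 ± 0.58 (29.6-fold lower, adjusted p 0.00507). Because the paralogues are alike in sequence, part of the signal of one probe set could come from the other gene, which was not tested.

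Slc5a1 encodes SGLT1, the main glucose and galactose carrier of the brush border. It had 10.98 and 11.44 in CKIα KO/p53 KO, against 12.30 and 12.85 in CKIα Het/p53 KO, and its log2 difference of -1.37 ± 0.38 (2.58-fold lower, adjusted p 0.0367) was smaller than that of its 2 relatives. The 95% intervals, -2.22 to -0.51 for Slc5a1 and -6.17 to -3.60 for Slc5a4b, did not overlap. Slc2a2 and Slc2a5 differed less. Slc2a2 had 10.69 and 10.29 in CKIα KO/p53 KO, against 10.91 and 11.46 in CKIα Het/p53 KO, a log2 difference of -0.69 ± 0.48 with an interval of -1.77 to 0.38 (adjusted p 0.332). Slc2a5 had 9.21 and 9.04 in CKIα KO/p53 KO, against 9.62 and 9.99 in CKIα Het/p53 KO, a log2 difference of -0.68 ± 0.39 with an interval of -1.55 to 0.18 (adjusted p 0.239). These intervals include both no difference and a drop as large as that of Mgam.

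The calls leaned on each of the 4 arrays compared, and those of Sis, Mgam, Treh and Slc5a1 were lost when any was left out. In fits that left 1 of them out, where the lone array is assumed to vary like the other groups, 3 genes fell without CKIα KO/p53 KO replicate 1, 2 without CKIα KO/p53 KO replicate 2, 1 without CKIα Het/p53 KO replicate 1 and 2 without CKIα Het/p53 KO replicate 2. Slc5a4a was called in all 12 fits that left out 1 array, Slc5a4b in 11, Lct in 9, and Slc5a1 in 6.

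**Figure D2:**
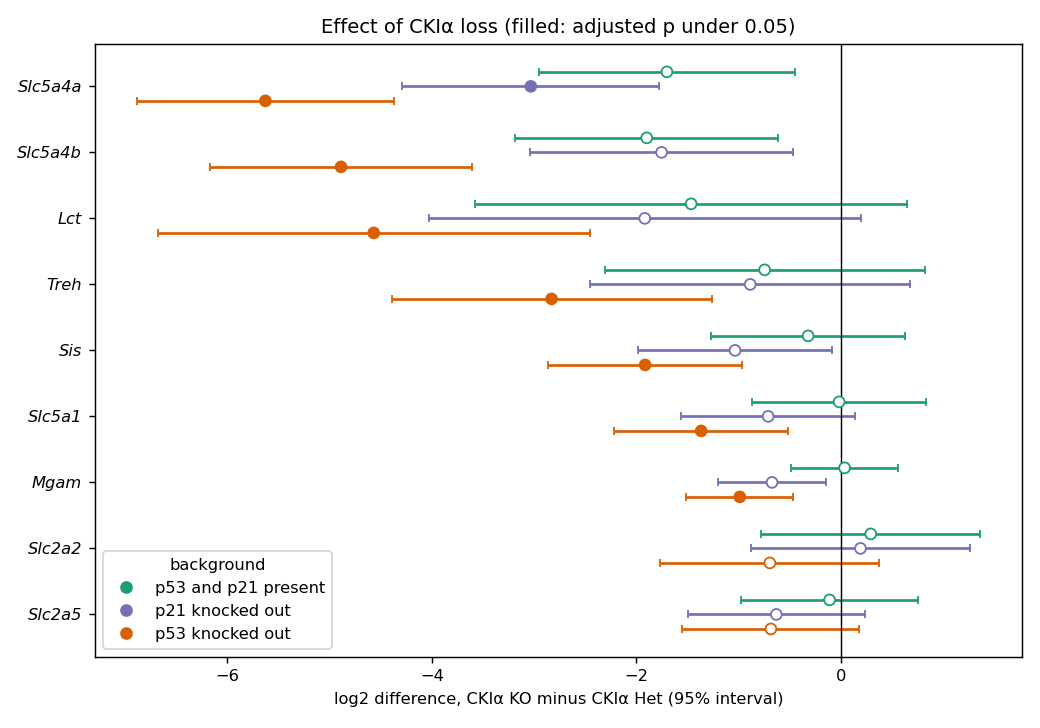
The log2 difference between CKIα KO and CKIα Het is plotted for each of the 9 genes in the 3 backgrounds, with bars for the 95% interval of the fit and filled points for an adjusted p under 0.05. The p53-null points lie furthest to the left for every gene, with 7 of 9 filled, against 1 filled point without p21 and 0 with both genes present.

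Promoter windows of 6 genes are shown because they span the range of responses. Slc5a4a, Slc5a4b, Lct and Treh had the largest drops without p53, Sis is the sucrase gene, in which HNF1 and CDX2 binding is textbook knowledge, and Slc2a5 did not pass the test. The sequences are from RefSeq on GRCm38.p6, each 300 bases, from 250 before to 50 after the annotated start, on the strand of the gene. All 9 genes had a window. Capitals mark matches, on either strand, to GTTAAT (a motif of HNF1 factors), TTTATG or TTTACG (CDX factors), GATAA (GATA factors), CAAAGTCCA (HNF4 factors) and CTTTGAT (TCF/LEF factors, the DNA partners of β-catenin).
Slc5a4a, chr10:76147201-76147500, plus strand: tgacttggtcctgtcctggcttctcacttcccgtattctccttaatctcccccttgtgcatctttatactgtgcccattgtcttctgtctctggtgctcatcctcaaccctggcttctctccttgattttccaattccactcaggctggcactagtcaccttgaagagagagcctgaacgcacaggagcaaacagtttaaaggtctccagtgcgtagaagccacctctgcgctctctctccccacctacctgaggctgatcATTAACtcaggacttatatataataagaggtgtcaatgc
Slc5a4b, chr10:76110969-76111268, minus strand: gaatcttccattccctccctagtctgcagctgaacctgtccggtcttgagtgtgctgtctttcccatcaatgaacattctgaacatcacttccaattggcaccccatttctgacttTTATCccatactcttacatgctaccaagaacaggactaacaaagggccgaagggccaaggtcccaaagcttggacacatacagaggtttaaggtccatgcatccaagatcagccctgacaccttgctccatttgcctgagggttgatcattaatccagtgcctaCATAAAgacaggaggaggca
Lct, chr1:128328269-128328568, minus strand: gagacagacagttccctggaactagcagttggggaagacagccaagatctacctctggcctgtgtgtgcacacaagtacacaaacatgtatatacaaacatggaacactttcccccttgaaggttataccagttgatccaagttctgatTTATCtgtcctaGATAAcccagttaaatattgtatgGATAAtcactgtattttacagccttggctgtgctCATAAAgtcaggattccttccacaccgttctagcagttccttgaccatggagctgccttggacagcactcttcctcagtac
Treh, chr9:44672983-44673282, plus strand: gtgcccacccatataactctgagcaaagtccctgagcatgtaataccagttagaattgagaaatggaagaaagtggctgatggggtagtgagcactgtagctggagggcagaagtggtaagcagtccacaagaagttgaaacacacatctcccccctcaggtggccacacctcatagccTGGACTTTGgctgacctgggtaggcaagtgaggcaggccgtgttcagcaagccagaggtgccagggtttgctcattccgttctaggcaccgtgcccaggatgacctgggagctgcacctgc
Sis, chr3:72967814-72968113, minus strand: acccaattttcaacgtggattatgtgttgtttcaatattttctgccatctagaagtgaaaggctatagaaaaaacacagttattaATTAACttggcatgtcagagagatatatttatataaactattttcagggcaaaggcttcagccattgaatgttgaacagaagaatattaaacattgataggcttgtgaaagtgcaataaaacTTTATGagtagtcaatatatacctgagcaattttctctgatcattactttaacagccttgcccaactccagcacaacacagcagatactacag
Slc2a5, chr4:150119094-150119393, plus strand: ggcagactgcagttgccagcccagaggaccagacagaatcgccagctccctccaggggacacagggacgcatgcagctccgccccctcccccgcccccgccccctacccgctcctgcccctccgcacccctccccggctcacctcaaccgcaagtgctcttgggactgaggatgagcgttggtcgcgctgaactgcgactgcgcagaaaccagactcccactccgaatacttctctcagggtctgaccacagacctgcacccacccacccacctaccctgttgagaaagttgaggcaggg

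GTTAAT matched in 2 of the 9 windows, Sis and Slc5a4a, and in 7.1% of the 32851 windows of the same length in the table. TTTATG matched in 3 of 9 (Lct, Sis and Slc5a4b) against 11.9% of all windows, and GATAA in 4 of 9 (Lct, Mgam, Slc5a4b and Slc2a2) against 25.4%. Lct alone held 3 GATAA matches, and its TTTATG match lay close to the start. CAAAGTCCA matched in Treh alone, against 0.475% of all windows. TTTACG and CTTTGAT matched in 0 of 9, against 3.03% and 3.73% of all windows. Slc5a1 and Slc2a5, which hold the highest share of G and C (60.3% and 65.3%), had no match. None of the motifs overlapped another in these windows. Matches were held by the genes that fell most and also by Slc2a2, which did not pass the test, and a match in letters is not a site of binding.

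With p53 and p21 both present, 0 of the 9 genes passed the test in CKIα KO against CKIα Het (limma), where 0% of all tested genes fell and 0.0239% rose. At an unadjusted p under 0.05 there were 2, Slc5a4b and Slc5a4a, where 1520 of 16721 tested genes were, in either direction. Slc5a4b had 9.43 and 9.06 in CKIα KO, against 11.06 and 11.23 in CKIα Het, a log2 difference of -1.90 ± 0.58 with an interval of -3.18 to -0.61 (adjusted p 0.327). Slc5a4a had 7.39 and 6.46 in CKIα KO, against 8.05 and 9.20 in CKIα Het, a log2 difference of -1.70 ± 0.56 with an interval of -2.96 to -0.44 (adjusted p 0.371). The arrays of both genes did not overlap between the groups, and neither call passed over all genes.

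Lct had 11.55 and 9.91 in CKIα KO, against 12.04 and 12.36 in CKIα Het, a log2 difference of -1.46 ± 0.94 (adjusted p 0.717). Treh had 9.17 and 8.92 in CKIα KO, against 9.68 and 9.90 in CKIα Het, a log2 difference of -0.74 ± 0.70 (adjusted p 0.836). Together with the SLC5A4 paralogues, these made 4 of 9 genes that were lower without overlap, where 16.8% of all tested genes were. For Lct the gap between the 2 CKIα KO arrays, 1.64, was larger than the difference between the group means. The arrays of the other 5 genes overlapped between the groups. Their log2 differences were -0.32 ± 0.42 for Sis, 0.038 ± 0.24 for Mgam, -0.016 ± 0.38 for Slc5a1, 0.29 ± 0.48 for Slc2a2 and -0.11 ± 0.39 for Slc2a5. The sign of that of Mgam turned to -0.016 after a further quantile normalization. For Mgam the 95% interval of -0.49 to 0.56 excludes a change of 1 log2 unit either way.

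With p21 knocked out, 1 of the 9 genes fell, Slc5a4a, where 0.514% of all tested genes fell and 1.46% rose. It had 6.45 and 4.65 in CKIα KO/p21 KO, against 8.72 and 8.44 in CKIα Het/p21 KO, a log2 difference of -3.03 ± 0.56 (adjusted p 0.0434). The lower value is below the array median, so the size of this difference is uncertain too. The call lay at the threshold. It was lost when each array was centred on its median (adjusted p 0.0513), with array weights (adjusted p 0.0534) and without 9 of the 12 arrays in turn.

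By the median over the 9 genes, the 2 CKIα KO/p21 KO arrays differed more than the replicates of any other group. The median gap between them was 1.39 log2 units, against 0.11 to 0.69 in the other 5 groups, and replicate 2 was lower for 9 of 9 genes. Over all tested genes their median gap was 0.20, within the 0.13 to 0.22 of the other groups. The CKIα Het arrays had the next widest median gap for the 9 genes, 0.69, against 0.13 over all tested genes. There replicate 2 was higher for 9 of 9 genes, and Mgam, Slc5a1 and Slc2a2 had wider gaps than in CKIα KO/p21 KO. In CKIα KO, replicate 2 was lower for 8 of 9 genes. Lct had 11.59 and 8.16 in CKIα KO/p21 KO, against 11.91 and 11.67 in CKIα Het/p21 KO, a log2 difference of -1.92 ± 0.94 (adjusted p 0.259). Slc5a4b had 10.19 and 7.76 in CKIα KO/p21 KO, against 10.74 and 10.72 in CKIα Het/p21 KO, a log2 difference of -1.75 ± 0.58 (adjusted p 0.112). One array thus sat near its control group and the other far below it.

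Treh showed the same split, with 9.24 and 6.44 in CKIα KO/p21 KO against 9.01 and 8.44 in CKIα Het/p21 KO, so the groups overlapped (adjusted p 0.515). Sis had 12.40 and 11.01 in CKIα KO/p21 KO, against 12.75 and 12.73 in CKIα Het/p21 KO (log2 difference -1.03 ± 0.42, adjusted p 0.181). Mgam had 12.21 and 11.83 in CKIα KO/p21 KO, against 12.61 and 12.77 in CKIα Het/p21 KO (-0.67 ± 0.24, adjusted p 0.128). Slc5a1 had a difference close to that of Mgam, with 12.002 and 11.17 in CKIα KO/p21 KO against 12.26 and 12.33 in CKIα Het/p21 KO (-0.71 ± 0.38, adjusted p 0.305). Slc2a2 had 11.08 and 9.76 in CKIα KO/p21 KO, on either side of 10.28 and 10.17 in CKIα Het/p21 KO. Slc2a5 had 9.11 and 8.01 in CKIα KO/p21 KO, against 9.16 and 9.22 in CKIα Het/p21 KO, and neither passed the test. In all, 7 of 9 genes were lower without overlap, where 24.3% of all tested genes were. Without replicate 1 of CKIα KO/p21 KO, 5 of the 9 genes fell (Lct, Sis, Treh, Slc5a4a and Slc5a4b), and without replicate 2, 0 fell.

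**Figure D3:**
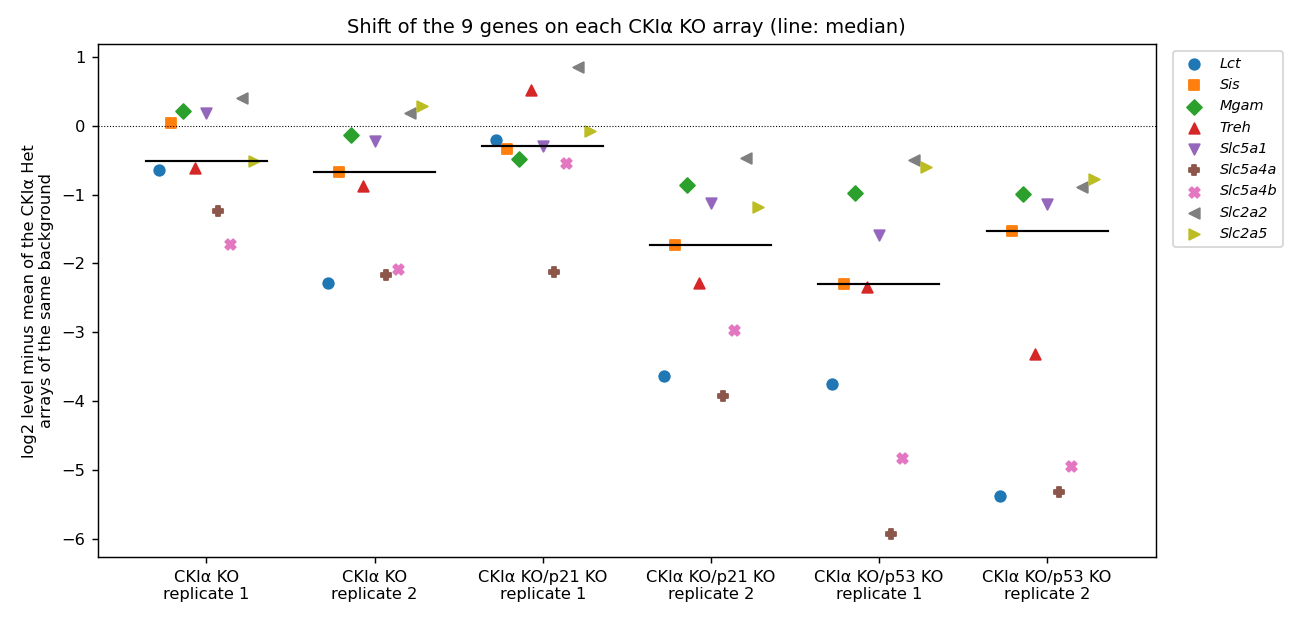
For each CKIα KO array, the log2 level of the 9 genes is plotted minus the mean of the 2 CKIα Het arrays of the same background, with a line at the median of the 9 genes. The medians are -0.51 and -0.68 with both genes present, -0.29 and -1.73 without p21, and -2.30 and -1.53 without p53, so by its median replicate 2 without p21 lies with the p53-null arrays. For each gene but Sis and Slc2a5, its shift is smaller than on either p53-null array, with Slc5a4a at -3.93 against -5.93 and -5.32.

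Averaged over the 3 backgrounds, CKIα KO was lower than CKIα Het for the same 7 genes as without p53, where 8.96% of all tested genes fell. The averaged log2 difference was -3.45 ± 0.32 for Slc5a4a (adjusted p 0.00119), -2.85 ± 0.33 for Slc5a4b (adjusted p 0.00194) and -2.65 ± 0.55 for Lct (adjusted p 0.00845). It was smaller for Treh (-1.49 ± 0.40), Sis (-1.09 ± 0.25), Slc5a1 (-0.70 ± 0.22) and Mgam (-0.54 ± 0.14), with adjusted p between 0.0120 and 0.0449. Slc2a2 (-0.069 ± 0.28) and Slc2a5 (-0.47 ± 0.22) did not pass. The averaged value is not independent of the p53-null comparison, whose arrays it contains. Slc5a4a, Slc5a4b, Lct and Sis fell in all 12 fits that left out 1 array, Mgam in 9, Treh in 5 and Slc5a1 in 2. The call of Slc5a1 was also lost with no filter, with array weights and with the replicate number as a block, each of which left 6 genes.

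Whether the effect of CKIα loss differs between backgrounds was tested as the difference of the differences. The effect without p53 minus that with both genes was below 0 for 9 of 9 genes, and 0 passed the test (limma), where 0.00598% of all tested genes passed as lower. At an unadjusted p under 0.05 there were 6, where 2485 of 16721 tested genes were, in either direction. Slc5a4a had the lowest value, -3.93 ± 0.79 (adjusted p 0.170), followed by Lct (-3.10 ± 1.34, adjusted p 0.322) and Slc5a4b (-2.99 ± 0.81, adjusted p 0.237). For Mgam it was -1.03 ± 0.33 (adjusted p 0.257). The effect without p21 minus that with both genes passed for 0 of 9 genes, where 0% of all tested genes passed, with adjusted p between 0.617 and 0.984 and 0 at an unadjusted p under 0.05. The larger drop without p53 is therefore not shown to differ from that with p53 over all genes.

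Among the CKIα KO groups, CKIα KO/p53 KO was lower than CKIα KO without overlap for 7 of 9 genes, where 25.8% of all tested genes were. The log2 difference was -2.68 ± 0.56 for Slc5a4a and -2.62 ± 0.58 for Slc5a4b, both with an adjusted p of 0.0578, and -3.08 ± 0.94 for Lct (adjusted p 0.104). None of the 9 genes passed (limma), where 0.227% of all tested genes fell. At an unadjusted p under 0.05 there were 6, where 3727 of 16721 tested genes were, in either direction. Slc2a2 (-0.10) and Slc2a5 (0.12) had nearly equal means in the 2 groups. CKIα KO/p21 KO against CKIα KO gave 0 calls of 9, where 0.0120% of all tested genes fell. It gave 1 gene at an unadjusted p under 0.05, where 2005 of 16721 tested genes were, in either direction. CKIα KO/p53 KO against CKIα KO/p21 KO gave 0 calls, where 0.215% fell, with Slc5a4b at -2.36 (adjusted p 0.190, limma). It gave 3 genes at an unadjusted p under 0.05, where 1507 of 16721 tested genes were, in either direction. These comparisons share arrays with each other and with those above.

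The CKIα Het groups served as the baseline in each background. CKIα Het/p53 KO against CKIα Het gave 0 calls of 9 (limma), where 0% of all tested genes were called lower and 0% higher, and 0 genes at an unadjusted p under 0.05. The largest log2 difference was that of Slc5a4a, 1.24 ± 0.56 (adjusted p 0.868), with 9.75 and 9.99 in CKIα Het/p53 KO against 8.05 and 9.20 in CKIα Het. The p53-null difference of this gene is thus taken against the highest of its group means. CKIα Het/p21 KO against CKIα Het also gave 0 calls, where 0% fell, and 0 genes at an unadjusted p under 0.05, with Treh at -1.06 (8.72 ± 0.41 in CKIα Het/p21 KO and 9.79 ± 0.16 in CKIα Het, SD, n = 2 each).

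Ordered by group mean, CKIα KO/p53 KO was the lowest group for Lct (7.65 ± 1.15, SD, n = 2), Sis (10.93 ± 0.55), Mgam (11.58 ± 0.0049), Treh (6.86 ± 0.69), Slc5a1 (11.21 ± 0.32), Slc5a4a (4.24 ± 0.43) and Slc5a4b (6.62 ± 0.083). CKIα KO/p21 KO came next for these genes, at 9.87 ± 2.42 for Lct, 11.71 ± 0.98 for Sis, 12.02 ± 0.27 for Mgam, 7.84 ± 1.98 for Treh, 11.58 ± 0.59 for Slc5a1, 5.55 ± 1.28 for Slc5a4a and 8.98 ± 1.72 for Slc5a4b. The 2 lowest groups lay within the spread of their arrays for Lct, Treh, Sis and Slc5a1, whose arrays overlapped. For Slc2a2 the lowest group was CKIα Het/p21 KO (10.23 ± 0.077) and for Slc2a5 it was CKIα KO/p21 KO (8.56 ± 0.78). CKIα Het/p53 KO had the highest mean of every gene but Mgam and Treh, among them Slc5a4a (9.87 ± 0.17), Slc5a4b (11.51 ± 0.28), Slc2a2 (11.18 ± 0.39) and Slc2a5 (9.80 ± 0.27).

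The genes also differed in which others they tracked. Likeness was measured as the root mean square difference of log2 values over the 12 arrays, each gene centred on its own mean, and is a description without a test, since all genes share the 12 arrays. Among the 9 genes, Lct and Slc5a4b (0.52) and Slc5a4a and Slc5a4b (0.63) lay close beside their own spreads of 1.83, 1.74 and 2.00. Mgam and Slc5a1 (0.22) and Sis and Slc5a1 (0.34) lay nearer, but their own spreads were smaller, at 0.41 for Mgam, 0.56 for Slc5a1 and 0.77 for Sis. Sis and Mgam lay at 0.43, above the own spread of Mgam. Slc2a2 and Slc2a5 lay at 0.37, not far below their own spreads of 0.53 and 0.50.

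Over 15443 other genes, those nearest to Lct were Enpp7 (0.32), Plb1 (0.46) and Maob (0.50). Slc23a1 and Bche were among the nearest 3 of both SLC5A4 paralogues, at 0.51 and 0.73 from Slc5a4a and 0.45 and 0.47 from Slc5a4b. Their remaining neighbour was Rdh7 for Slc5a4a (0.73) and Susd2 for Slc5a4b (0.44). For Treh they were Apoc3 (0.24), Cat (0.32) and Abat (0.32). The nearest genes of Sis were Kcnk5, Cndp2 and Epha1 (0.17 to 0.22), those of Mgam Smad7, Myo1a and Snx25 (0.15 to 0.16), and those of Slc5a1 Neurl1b, Fam118a and Maf (0.21 to 0.23). Slc2a2 was nearest to Tlcd2, Clcn5 and Ctss (0.29 to 0.33), and Slc2a5 to Ugcg, Sh3gl2 and Clcn5 (0.23 to 0.25).

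Other genes that carry sugars or related solutes moved in both directions without p53. Of 17 further members of the SLC5, SLC2 and SLC50 families, 16 were tested, and 5 fell and 2 rose, with a median log2 difference of -0.30. For this and the lists below, the shares over all tested genes are 6.82% lower and 11.0% higher without p53. Slc5a11, an inositol carrier, had 6.76 and 6.45 in CKIα KO/p53 KO, against 10.22 and 10.38 in CKIα Het/p53 KO (-3.69 ± 0.54, 12.9-fold lower, adjusted p 0.00756), and its log2 difference was -0.86 without p21 and -0.74 with both genes. Slc2a9, a urate carrier, fell by 1.08 (adjusted p 0.00595), with -0.06 without p21 and -0.14 with both. Slc5a3, another inositol carrier, rose by 1.60 ± 0.23 (adjusted p 0.00747) and lay higher without overlap in the other backgrounds too, at 1.04 without p21 (adjusted p 0.0509) and 1.34 with both genes, neither of which passed. The 4 further calls, named after their values were seen, were Slc2a7 (-3.69), Slc5a8, a monocarboxylate carrier (-2.04), Slc5a2 (-0.57) and Slc2a1 (0.85), the basal glucose carrier GLUT1 of many cells. Slc2a7 thus fell although it belongs to the SLC2 family of Slc2a2 and Slc2a5. Slc5a2 lay near or below the array median, at 4.42 and 4.50 in CKIα KO/p53 KO against 4.82 and 5.25 in CKIα Het/p53 KO, so the size of its difference is uncertain. Of the 16, 1 fell without p21 (Slc5a8, -1.54, adjusted p 0.0477), and 0 with both genes present (limma). With both genes, 1 of the 16 lay at an unadjusted p under 0.05, where 1520 of 16721 tested genes did, in either direction.

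Of 16 tested genes of sugar metabolism, 3 fell and 1 rose without p53. Their log2 differences ran from -2.95 to 1.25, with 9 of 16 below 0. Glyctk, a kinase of fructose breakdown, fell by 1.72 (adjusted p 0.00507), Mlx, the partner of the sugar-responsive factor ChREBP, by 0.63 (adjusted p 0.0209), and hexokinase Hk1 rose by 0.73 (adjusted p 0.0218). The third gene that fell was Pck1 of gluconeogenesis (-2.95, adjusted p 0.0417), named after its value was seen. In the list of the sodium pump and sweet sensing, Atp1b3, a pump subunit, rose by 1.17 (adjusted p 0.0107) and Tas1r3, a sweet receptor subunit, fell by 1.09 (adjusted p 0.0183), of 5 tested, and Tas1r2 had -0.55 (adjusted p 0.107). Of 14 transcription factors known to act on these or other intestinal genes, Thrb, a thyroid hormone receptor (-1.56, adjusted p 0.00783), and Hnf4g, a nuclear receptor of enterocytes (-1.71, adjusted p 0.00889), fell and none rose. Pdx1 had 1.13 ± 0.39 (adjusted p 0.0710). In CKIα KO/p53 KO, Glyctk (5.08 and 4.92), Tas1r3 (4.49 and 5.15) and Thrb (4.63 and 4.72) lay near or below the array median. The size of their differences is uncertain.

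**Figure D4:**
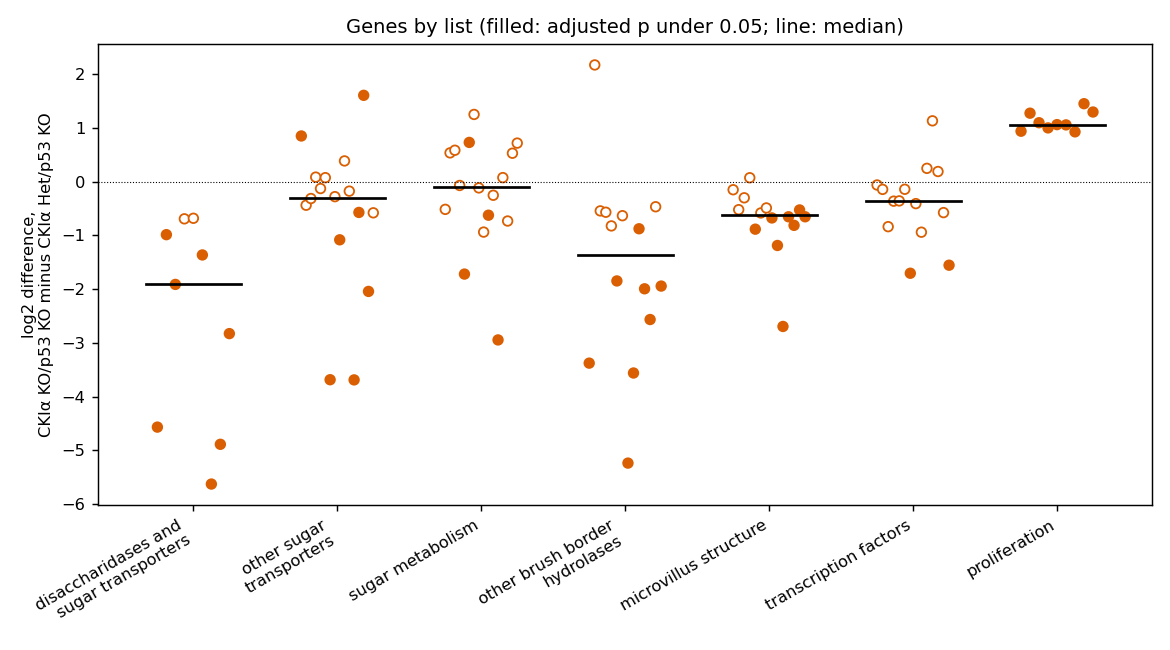
Each point is the log2 difference of 1 tested gene between CKIα KO/p53 KO and CKIα Het/p53 KO, by gene list, with filled points for an adjusted p under 0.05 and a line at the list's median. The medians are -1.91 for the 9 disaccharidase and transporter genes, -1.36 for other brush border hydrolases, -0.62 for microvillus genes and 1.06 for proliferation genes.

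Of 14 tested hydrolases of the brush border, 8 fell and 0 rose without p53, with a median of -1.36. The range ran up to Akp3, an alkaline phosphatase, with 10.51 and 8.28 in CKIα KO/p53 KO, against 7.52 and 6.93 in CKIα Het/p53 KO (2.17 ± 0.91, adjusted p 0.124). Enpp7, the alkaline sphingomyelinase, had 7.28 and 5.50 in CKIα KO/p53 KO, against 11.61 and 11.64 in CKIα Het/p53 KO (-5.24 ± 0.91, 37.7-fold lower, adjusted p 0.00913). The peptidases Ace (-3.38 ± 0.57) and Enpep (-1.85 ± 0.25) also fell. Of 14 genes of microvillus structure, 8 fell and 0 rose, with a median of -0.62, among them Pdzk1 (-2.70 ± 0.55), Myo7b (-1.19 ± 0.25) and Pls1 (-0.66 ± 0.16). Without p21, 0 of either list passed (limma), with 4 and 5 at an unadjusted p under 0.05, and with both genes present 0, with 2 and 0. Of all 16721 tested genes, 3881 without p21 and 1520 with both genes lay under that unadjusted p, in either direction. A list of 6 villus tip genes differed less. Its mean level was 10.29 and 10.24 in CKIα KO/p53 KO, against 10.83 and 10.57 in CKIα Het/p53 KO.

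Markers of some other cell states and types also differed between the groups, in either direction. The mean log2 level of 9 proliferation genes was 8.66 and 8.53 in CKIα KO/p53 KO, against 7.31 and 7.64 in CKIα Het/p53 KO, and 9 of 9 rose. In CKIα KO/p21 KO it was 8.18 and 9.04, against 7.69 and 7.36 in CKIα Het/p21 KO, higher on the array on which the 9 genes were lower. With both genes present it was 7.63 and 7.41 in CKIα KO, against 7.36 and 7.61 in CKIα Het. The mean of 10 crypt base markers was 8.41 and 7.97 in CKIα KO/p53 KO, against 7.12 and 7.13 in CKIα Het/p53 KO. Of the 10, 5 rose and 0 fell, and 2 differences were below 0. Olfm4 had 10.04 and 8.19 in CKIα KO/p53 KO, against 10.61 and 10.77 in CKIα Het/p53 KO. Without p21, 2 of 10 rose and 2 differences were below 0. With both genes present, 4 of 10 were below 0 and 0 passed (limma), with 4 at an unadjusted p under 0.05. There 1520 of 16721 tested genes lay under that unadjusted p, in either direction.

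Of goblet cell markers 5 of 7 and of enteroendocrine markers 7 of 8 fell without p53, and 0 of either list rose. Without p21, 2 of 7 and 3 of 8 fell, and all 7 and all 8 differences were below 0. All were below 0 with both genes present too, where 0 passed (limma, with 3 and 4 at an unadjusted p under 0.05). Of all 16721 tested genes, 1520 lay under that unadjusted p with both genes present, in either direction. The mean level of the goblet list was 10.14 and 9.33 in CKIα KO/p21 KO, against 10.92 and 10.99 in CKIα Het/p21 KO, lower on the array on which the 9 genes were lower. Among markers of gut segments, 3 of 7 tested proximal markers rose without p53 and 2 without p21, and 3 of 6 distal ileum markers fell without p53. The mean level of the proximal list was 8.98 and 8.61 in CKIα KO/p53 KO, against 7.41 and 7.01 in CKIα Het/p53 KO. This gap came mostly from the iron genes Cybrd1 (log2 difference 6.44) and Slc40a1 (4.96), while the list's median was 0.56 and Fabp1 (-0.41) and Gata4 (-0.36) did not pass. The mean of the distal list was 8.10 and 7.17 in CKIα KO/p53 KO, against 9.16 and 8.34 in CKIα Het/p53 KO. The mean of 9 lymphocyte markers overlapped, at 7.72 and 6.59 in CKIα KO/p53 KO against 6.76 and 7.83 in CKIα Het/p53 KO. In CKIα KO/p21 KO it was 7.26 and 6.23, against 7.63 and 8.41 in CKIα Het/p21 KO, lower without overlap. The mean of 10 fibroblast and smooth muscle markers was 5.75 and 4.81 in CKIα KO/p21 KO, against 5.55 and 6.48 in CKIα Het/p21 KO, where Acta2 was 5.11 and 9.66. The part of these lists in the levels of the 9 genes was not tested.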

How the data were processed

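Total RNA of mouse enterocytes was hybridized to Affymetrix arrays. Per the labels' protocols, the authors extracted intensities with Affymetrix Expression Console 1.1 by the RMA Sketch method and normalized them by median intensities. The deposited values were taken as log2 intensities. The base of that logarithm is not given in the sources used here and was taken from the range of the values. The array annotation of the platform gave the symbols, and RefSeq GRCm38.p6 the promoter windows, of which none was used for a test. The genome build of the arrays is not given in the sources used here.

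The 12 arrays of the 6 groups entered 1 model of limma 3.58.1 (R 4.3.3) with 6 residual degrees of freedom, so that all groups share 1 estimate of the spread. A gene was represented by the probe set of its symbol alone with the highest mean, and was tested if it lay above the 25th percentile of all probe sets on at least 2 arrays. The 11 comparisons were each adjusted by Benjamini and Hochberg over 16721 genes, with 0.05 as the threshold for the adjusted p. Errors are standard errors of the fit and intervals cover 95%. Precision is limited by 2 arrays a group. The p53-null test was also run on simulated data, 10 runs with 200 changed genes each. It recovered 57.5% of changes of 1 log2 unit and 91.7% of changes of 2, and 5.39% of its calls were false. The simulated noise was independent between genes and no other gene was changed, so these shares need not hold for the reported calls. All 9 genes are named, and of each other list up to 3 genes with the smallest p without p53. For likeness the 3 nearest genes are named. The members, the 21 other lists and the motifs were chosen with earlier results of these data known.

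Alternatives were no filter, quantile normalization, median centring, an intensity trend or robust step in eBayes, array weights, the replicate number as a block, the mean of a gene's probe sets, and each array left out in turn.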

Additional observations from a re-analysis of the deposited data

How the results depend on the processing

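Without p53, 7 of the 9 genes fell under all 8 processing alternatives, and between 1 and 7 when 1 array was left out, with 20 to 3646 genes called over all tested genes (2981 with all arrays). Over the 3 backgrounds, the left-out range was 4 to 8 of 9, with 2666 to 4871 genes in all. Without p21, the count was 0 to 5 of 9 and 0 to 2777 genes (330 with all arrays), and it was 0 of 9 with median centring and with array weights. All genes called there numbered 163 with no filter, 99 with median centring and 119 with array weights. With both genes present, 0 to 1 of 9 genes and 0 to 84 genes in all were called (4 with all arrays), and 2 genes with quantile normalization and 11 with array weights. The other left-out ranges of all genes called were 0 to 108 and 0 to 243 for the differences of effects without p21 and without p53, with 5 genes under quantile normalization in the second. For the 9 genes in these they were 0 to 0 and 0 to 2. CKIα KO/p21 KO against CKIα KO gave 0 to 3 of the 9 and 2 to 1148 genes (2 with array weights). CKIα KO/p53 KO against CKIα KO gave 0 to 5 of the 9 and 7 to 1445 genes, with 60 under median centring and 25 with array weights (116 as reported). CKIα KO/p53 KO against CKIα KO/p21 KO gave 0 to 3 of the 9 and 19 to 221 genes (35 with array weights). The CKIα Het comparisons gave 0 to 8 genes without p21, with 2 under quantile normalization and 2 with array weights, and 0 to 2 without p53. In several comparisons, such as CKIα KO against CKIα Het, the highest count came from the fit without CKIα KO/p21 KO replicate 1. That array is outside this comparison, so its log2 differences did not change there, and only the shared estimate of the spread did. Apart from this, and from the fewer arrays or other genes tested that the settings themselves bring, the cause of these shifts was not tested.

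The replicate numbers were tested as a pairing. Over 15 pairs of groups the deviations of same-numbered arrays correlated between -0.16 and 0.25, with 5 pairs over 0.1, and without Xist and 4 Y-linked genes 4 pairs were. The labels tie the numbers to no animal, litter or batch, and the numbers were not taken to pair the arrays, although same-numbered arrays share the split in Xist. With the replicate number as a block, 2 genes were called with both p53 and p21 present, and CKIα KO/p53 KO against CKIα KO gave 338 genes, among them 1 of the 9 (Slc5a4b). Over the 3 backgrounds 6 of the 9 fell under the block, without Slc5a1.

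Of 900 recomputed values of single genes, 834 kept their direction and side of the threshold and 23 changed sign. Those sign changes were of values that did not pass with all arrays. With both genes present, Mgam turned to -0.016 under quantile normalization and -0.0048 under median centring, and the left-out ranges were -0.31 to 0.38 for Mgam, -0.68 to 0.040 for Sis, -0.57 to 0.54 for Slc5a1, -0.42 to 1.00 for Slc2a2 and -0.52 to 0.31 for Slc2a5. Without p21 they were -2.29 to 0.52 for Treh and -0.46 to 0.85 for Slc2a2. The difference of the effects without p21 and with both ranged from -2.17 to 1.26 for Lct, -1.54 to 1.26 for Treh, -1.07 to 1.36 for Slc5a4b (-0.0056 under quantile normalization), -0.81 to 0.61 for Slc2a2 and -1.07 to 0.028 for Slc2a5. With 2 arrays a group, signals near background such as those of Slc5a4a in CKIα KO/p53 KO also limit how large a difference can be read.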

Other observations

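The array that entered no comparison bears the title of a CKIα KO/p53 KO sample, but neither its genotype nor its source label mentions p53. Its values were 9.32 for Lct, 11.46 for Sis, 12.01 for Mgam, 8.79 for Treh, 5.31 for Slc5a4a and 8.54 for Slc5a4b. For these 6 genes they lay between the range of the CKIα KO/p53 KO arrays and the range of the CKIα KO arrays. Slc5a1, at 11.14, lay within the range of the CKIα KO/p53 KO arrays. Slc2a2 (9.47) and Slc2a5 (7.87) lay below all 12 other arrays.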
